A study of Mus musculus with 6 samples.

Results

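Transferrin and 9 further genes that carry, take up, store, export or sense iron were followed in AKP tumour organoids, with libraries labelled SOX17KO set against Control libraries. The genes were chosen by symbol: Trf, Tfrc, Fth1, Ftl1, Slc40a1, Slc11a2, Hmox1, Aco1, Ireb2 and Lcn2. All 10 were among the 23224 genes of the deposited table. The group was built around Trf because Trf was among the largest increases of this comparison, so the difference of each of the 10 between the groups is given as a description, with no test. RNA sequencing gave 6 libraries. The 3 libraries labelled SOX17KO came from mouse AKP organoids grown out of tumours in vivo, in which Sox17, an endoderm transcription factor, had been deleted with CRISPR-Cas9 to examine its role in colon cancer. The 3 Control libraries came from AKP organoids of the same source. All 6 share the AKP background, whose alleles the labels do not spell out. The labels give neither the number of clones nor whether the libraries of a group were separate cultures, so each p-value reflects only how much these 6 libraries vary, which may be technical. SOX17KO stands below for the libraries so labelled.

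Transferrin is the plasma protein that carries ferric iron, and it is made mainly by the liver. Cells take it up through the transferrin receptor, release its iron in the endosome, move the iron into the cytosol through the transporter DMT1, and store the surplus in ferritin, a shell of heavy and light chains. Ferroportin is the known exporter of iron from cells, including absorptive enterocytes, and haem oxygenase frees iron from haem. The iron regulatory proteins IRP1 and IRP2 bind hairpins called iron-responsive elements when iron is scarce. Binding in the 3' untranslated region (UTR) steadies the transferrin receptor mRNA, while binding in the 5' UTR blocks translation of ferritin and ferroportin mRNA, so that control of the ferritins is largely not visible in mRNA levels.

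The hairpins are shown because a site in the 3' UTR is tied to mRNA stability and one in the 5' UTR to translation. A match is a sequence only, and a response to iron was not tested. They were searched for on the transcript strand of GENCODE protein-coding transcripts (GRCm38) as an unpaired C, 5 stem bases and the loop CAGTGN with a last base other than G, with all 5 base pairs of the upper stem (G-U pairs allowed) and at least 4 of 5 pairs in the lower stem. The 6 loop bases are in capitals.
Fth1, 5' UTR, chr19:9982733-9982759, plus strand: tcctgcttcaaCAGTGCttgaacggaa
Ftl1, 5' UTR, chr7:45459780-45459806, minus strand: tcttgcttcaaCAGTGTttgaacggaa
Tfrc site 1, 3' UTR, chr16:32631220-32631246, plus strand: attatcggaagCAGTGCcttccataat
Tfrc site 2, 3' UTR, chr16:32631599-32631625, plus strand: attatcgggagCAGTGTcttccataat
Tfrc site 3, 3' UTR, chr16:32631664-32631690, plus strand: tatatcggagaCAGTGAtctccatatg
Tfrc site 4, 3' UTR, chr16:32631711-32631737, plus strand: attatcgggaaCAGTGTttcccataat
Tfrc held 4 matches and Fth1, Ftl1 and Slc40a1 held 1 each, the last in its 5' UTR. Of 21877 protein-coding gene symbols, 6 had a match in a 5' UTR (0.0274%) and 7 in a 3' UTR (0.032%). No match in another member says only that this pattern was not in its annotated UTRs.

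Depth was 18290912 to 27503254 counts per library. Sox17 itself was at 33.8, 41.9 and 45.1 CPM (counts scaled to library size) in SOX17KO replicates and at 34.4, 34.5 and 34.2 CPM in Control, so its level was not lower (log2 fold change 0.23 ± 0.12 SE, edgeR adjusted p = 0.345; 0.34 and edgeR adjusted p = 0.0113 with SOX17KO replicate 1 left out) and does not check the labels. SOX17KO replicate 1 stood apart: its log2 CPM correlated at 0.960 and 0.963 with the other SOX17KO libraries, which correlated at 0.986 with each other. Of 9 epithelial markers 8 were tested; Epcam (675 to 678 CPM in SOX17KO, 524 to 542 CPM in Control, edgeR adjusted p = 0.0343) and Cldn7 (edgeR adjusted p = 0.0223) rose, Krt19 was below every Control library in SOX17KO but not called (edgeR adjusted p = 0.332), and Cdx1 was at or near 0. The 10 measured macrophage markers summed to 42.0 to 45.8 CPM in SOX17KO and 28.3 to 31.6 CPM in Control. Of these, Cd14 rose (33.9 CPM in SOX17KO and 20.1 CPM in Control, edgeR adjusted p = 0.0254), Cd68 was at 9.89 and 9.06 CPM in SOX17KO and Control, Emr1, Lyz2 and Csf1r did not pass 0.267 CPM in any library, and Fcgr1, Marco, Vsig4 and Cd5l were at 0. The part of these markers in the results was not tested.

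Trf was the member whose groups stood far apart. It had 7.06, 42.7 and 28.8 CPM in SOX17KO replicates 1, 2 and 3, against 0.326, 0.239 and 0.457 CPM in Control replicates 1, 2 and 3. These values rest on 185, 974 and 519 counts in SOX17KO and on 9, 5 and 12 counts in Control. Every library labelled SOX17KO was above every Control library, and replicate 1 was the lowest of the 3. The mean was 26.2 ± 17.98 CPM in SOX17KO and 0.340 ± 0.109 CPM in Control (SD, n = 3 each), a log2 fold change of 6.22 ± 0.79 (SE). The ratio of the summed counts, scaled to library size, was 72.0, with a 95% counting interval of 49.0 to 111 that covers counting error only. It was the 7th highest log2 fold change of 12137 tested genes, which is why it was chosen. In 14 other settings of the analysis its log2 fold change lay between 5.66 and 6.67.

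**Figure D1:**
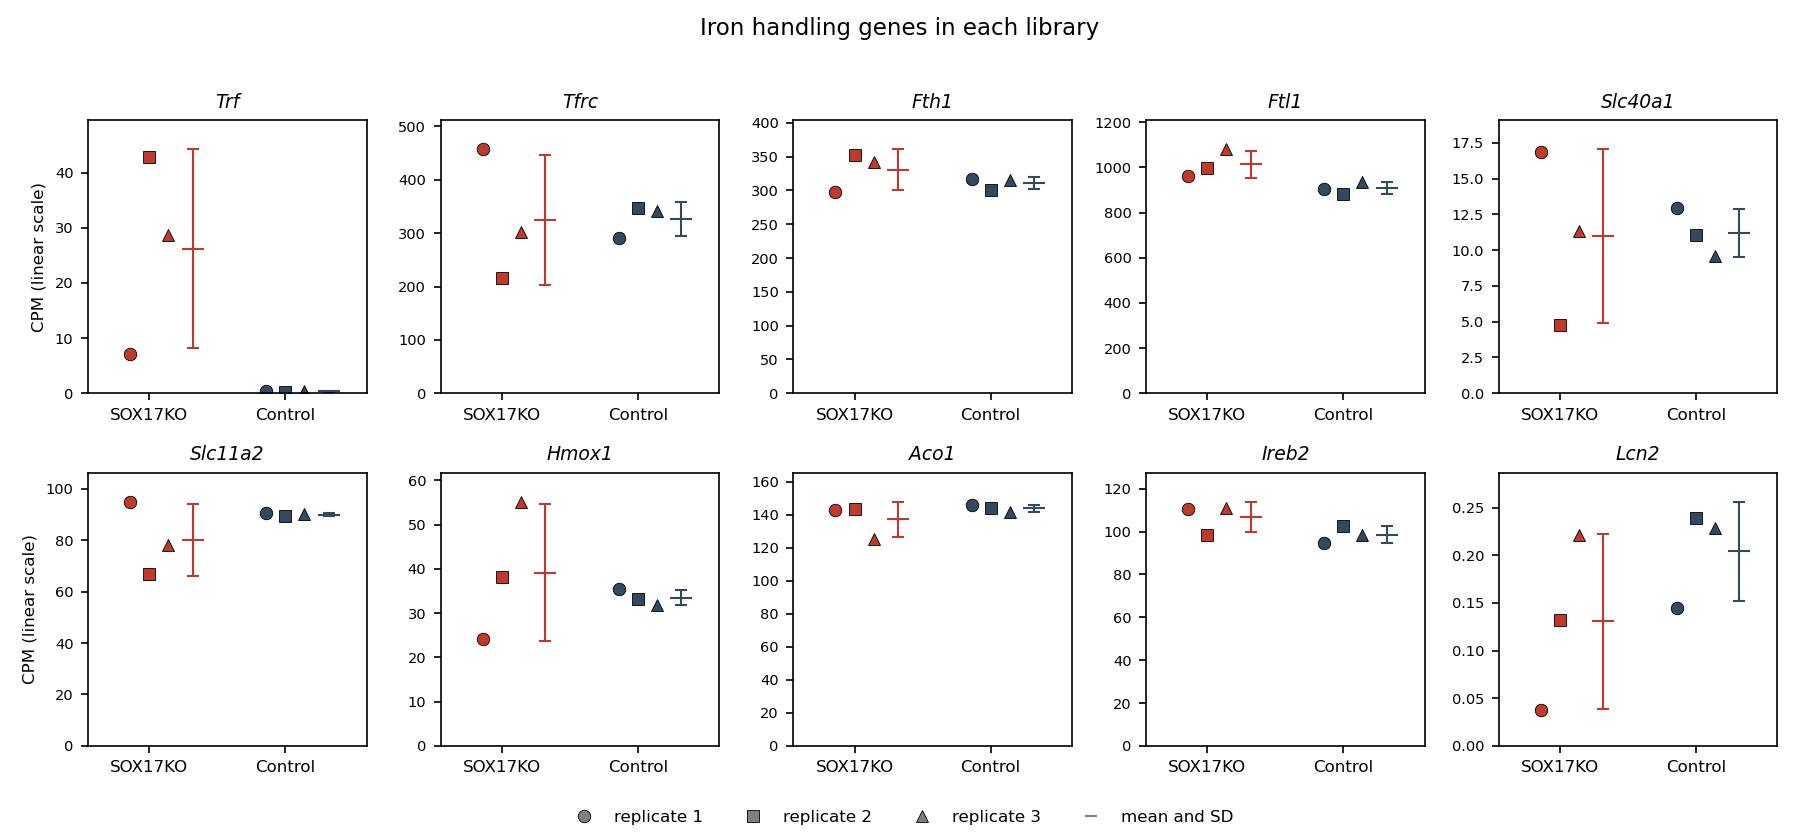
CPM of each of the 10 genes in each library on linear axes that start at 0, with SOX17KO in red and Control in blue, 1 symbol per replicate and a bar for the mean and SD over 3 libraries. Trf lies between 7.06 and 42.7 CPM in SOX17KO and at or below 0.457 CPM in Control, while the groups overlap for 8 of the other genes and lie close together for Ftl1.

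Hepatocytes and oligodendrocytes are the cell types best known to make transferrin. Of 13 hepatocyte markers, 2 were abundant enough to test and 1 rose, Rbp4, the plasma carrier of retinol, at 6.83 ± 0.871 CPM in SOX17KO and 0.905 ± 0.236 CPM in Control (edgeR adjusted p = 0.00136). The 13 summed to 6.83 to 9.12 CPM in SOX17KO and 1.44 to 2.21 CPM in Control. In SOX17KO nearly all of the sum was Rbp4, at 6.14 to 7.81 CPM. The other tested marker, Afp, was at 0.553 CPM in SOX17KO and 0.741 CPM in Control and was not called (edgeR adjusted p = 0.724). The defining marker Alb was at most 0.0763 CPM in SOX17KO and at 0 counts in Control, and Fga, Fgg and Ahsg had no count in any library. Of 7 oligodendrocyte markers 2 were tested and neither was called; the 7 summed to 107 to 161 CPM in SOX17KO and 90.3 to 91.7 CPM in Control, nearly all from Mbp and Cnp, while Mog and Olig1 were at most 0.111 CPM and Olig2 was at 0. The part of these markers in the Trf values was not tested. In bulk RNA a change in how many cells of a type are present and a change in RNA per cell cannot be told apart.

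Of 5 tested transcription factors of liver, several of them known to act on the transferrin gene, 2 rose. Over all tested genes 3.67% were called higher. The list was chosen with earlier results of these data known, so nothing is read from that count. Hnf4a, a nuclear receptor of liver and gut, had 110, 29.98 and 49.4 CPM in SOX17KO, against 3.31 to 4.07 CPM in Control, and rose (log2 fold change 4.08 ± 0.50 SE, edgeR adjusted p = 0.00541). The order of the SOX17KO libraries was the reverse of that for Trf: replicate 1 was highest for Hnf4a and lowest for Trf. Without Control replicate 1 or 3 Hnf4a was not called (edgeR adjusted p = 0.0526 and 0.0501), and its log2 fold change was 3.41 with SOX17KO replicate 1 left out. Foxa3, a forkhead factor of endoderm, rose to 58.7, 53.0 and 53.8 CPM in SOX17KO, against 27.0 to 29.1 CPM in Control (log2 fold change 0.99 ± 0.08 SE, edgeR adjusted p = 0.00132). Cebpb had 24.8, 38.4 and 35.5 CPM in SOX17KO and 37.6 to 38.3 CPM in Control and was not called (edgeR adjusted p = 0.558), nor were Nr2f2 (edgeR adjusted p = 0.101) and Foxa2 (edgeR adjusted p = 0.647). Cebpa and Nr2f1 were below 0.5 CPM in every library and were not tested.

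None of the genes next to Trf was called. Srprb and Ryk on one side and Topbp1 and Cdv3 on the other are its nearest tested neighbours in RefSeq order on chromosome 9. Their log2 fold changes were 0.05, 0.14, 0.10 and 0.13 (lowest edgeR adjusted p 0.579). Over all tested genes of chromosome 9 the median log2 fold change was 0.01.

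Among genes with at least 5 CPM in the mean of either group, the 5 whose log2 CPM followed Trf most closely over the 6 libraries were Otud5, 4933433P14Rik, Gmds, Faim2 and Sema6b, with Pearson r between 0.995 and 0.997. The points share libraries, depth and the group difference, so r is a description. Otud5 encodes a deubiquitinase, Gmds an enzyme of GDP-fucose synthesis, Faim2 an inhibitor of Fas-driven cell death and Sema6b a semaphorin. Faim2 had 97.4, 338 and 248 CPM in SOX17KO replicates 1, 2 and 3 and 21.6 to 25.3 CPM in Control. Its SOX17KO libraries had the same order as for Trf, a likeness for which it was picked. A high r does not mean a like size of difference. The log2 fold change was 3.27 for Faim2 but 0.26 for Otud5, which was not called (edgeR adjusted p = 0.0902), against 6.22 for Trf. The naming of these genes rests on single libraries: when any 1 library was left out, between 0 and 2 of the 5 stayed among the 5 closest, and with library totals only 2 did.

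Tfrc, the receptor that brings transferrin into the cell, had nearly the same mean in both groups. There were 457, 215 and 301 CPM in SOX17KO replicates 1, 2 and 3, against 291, 348 and 342 CPM in Control replicates 1, 2 and 3. SOX17KO replicate 1 was above every Control library and replicate 2 below every one, so the groups overlap. The means were 324 ± 122 CPM in SOX17KO and 327 ± 31.6 CPM in Control, a log2 fold change of -0.01 with a 95% interval of -0.61 to 0.59. It was -0.34 when SOX17KO replicate 1 was left out and 0.21 when replicate 2 was left out, so the sign rests on single libraries.

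Slc11a2 encodes DMT1, which carries ferrous iron across the endosomal and apical membrane. It had 94.8, 66.8 and 78.3 CPM in SOX17KO and 90.4, 89.3 and 90.1 CPM in Control. The Control libraries lay within 1.01-fold of each other, and SOX17KO replicates 2 and 3 were below all of them while replicate 1 was above. Its log2 fold change was -0.17 (95% interval -0.47 to 0.13), and -0.31 without SOX17KO replicate 1.

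Slc40a1 encodes ferroportin. It had 16.9, 4.78 and 11.3 CPM in SOX17KO replicates 1, 2 and 3 and 12.9, 11.1 and 9.58 CPM in Control replicates 1, 2 and 3. The groups overlap, with both the highest and the lowest library in SOX17KO, 3.53-fold apart. The log2 fold change was -0.02, with a 95% interval of -0.98 to 0.93, so differences approaching 2-fold either way could not be told from none at this spread. It was -0.50 without SOX17KO replicate 1 and 0.34 without replicate 2.

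The ferritin chains were the most abundant of the 10 per length of transcript. Scaled to the longest protein-coding GENCODE transcript, Ftl1, the light chain that forms the mineral core, was at 1047 ± 62.6 CPM per kilobase in SOX17KO and 938 ± 27.7 in Control. Fth1, the heavy chain with ferroxidase activity, was next, at 221 ± 19.9 CPM per kilobase in SOX17KO and 208 ± 5.78 in Control. Tfrc followed with 66.4 ± 25.0 and 66.9 ± 6.47 CPM per kilobase in SOX17KO and Control, and Aco1 with 35.8 ± 2.73 and 37.6 ± 0.579. Hmox1, Ireb2 and Slc11a2 lay between 17.1 and 25.0 CPM per kilobase in the mean of either group, and in SOX17KO their library values overlap, so their order there is not resolved; the highest Hmox1 library also reached into the range of Aco1. Below them Slc40a1 was at 3.26 ± 1.80 CPM per kilobase in SOX17KO and 3.32 ± 0.496 in Control, and Lcn2 at 0.143 in SOX17KO and 0.223 in Control. In the SOX17KO mean Trf was number 8 of the 10, at 10.2 ± 6.99 CPM per kilobase. That place is not resolved: its lowest SOX17KO library was within the Slc40a1 range. Its highest, at 16.6, was above the lowest of Hmox1 (15.4) and Slc11a2 (15.1). In Control Trf was at 0.132 ± 0.0426, in last place together with Lcn2, whose lowest Control library was below the highest for Trf.

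Between the groups the ferritin mRNAs moved little. Ftl1 had 961, 999 and 1080 CPM in SOX17KO and 906, 882 and 935 CPM in Control. All SOX17KO libraries were above all Control libraries, as they were for 13.97% of all tested genes, by a log2 fold change of 0.16 (95% interval -0.04 to 0.36). Fth1 had 297, 353 and 343 CPM in SOX17KO and 317, 301 and 315 CPM in Control, with replicate 1 of SOX17KO below every Control library and the other two above. Its log2 fold change was 0.09 (95% interval -0.13 to 0.30). Most ferritin values were not whole numbers, which shows reads shared with other sequences. This was not particular to ferritin: it held for 100% of the values of Tfrc and Slc11a2 and 66.7% of those of Aco1 and Ireb2. Ferritin genes have processed pseudogenes, and Ftl1-ps1 was among the genes with the same hairpin. The level of either chain is therefore uncertain to the extent that the authors' estimation split such reads.

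Hmox1 encodes the inducible haem oxygenase. It had 24.2, 38.1 and 55.1 CPM in SOX17KO replicates 1, 2 and 3 and 35.4, 33.3 and 31.9 CPM in Control. SOX17KO replicate 1 was below and replicates 2 and 3 above all Control libraries. The log2 fold change was 0.22 (95% interval -0.41 to 0.85); it was 0.47 without SOX17KO replicate 1 and -0.10 without replicate 3, so its direction rests on replicate 3.

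The iron sensors varied little. Aco1, which encodes IRP1, had 143, 143 and 125 CPM in SOX17KO and 146, 144 and 142 CPM in Control (log2 fold change -0.07, 95% interval -0.26 to 0.12). SOX17KO replicates 1 and 2 lay within the Control range and replicate 3 below it. Ireb2, which encodes IRP2, had 110, 98.6 and 111 CPM in SOX17KO and 94.6, 103 and 98.5 CPM in Control (log2 fold change 0.11, 95% interval -0.08 to 0.31). The groups overlap for both genes, and both intervals exclude a 1.5-fold difference.

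Lcn2 encodes lipocalin 2, a secreted protein that withholds iron-laden siderophores from bacteria and is made by inflamed epithelium and neutrophils. It had 1, 3 and 4 counts in SOX17KO and 4, 5 and 6 counts in Control, or 0.0382 to 0.222 CPM in SOX17KO and 0.145 to 0.239 CPM in Control. The summed counts gave a ratio of 0.595 with a 95% counting interval of 0.219 to 1.496, and a difference was not detectable at this depth. It was the 1 member that did not pass the filter on low counts. Among 8 measured neutrophil markers, 2 were tested and neither was called; Ngp, Camp, Elane and Mpo had no count in any library, and the list summed to 12.7 to 15.6 CPM in SOX17KO and 17.5 to 24.8 CPM in Control, mostly from Cxcr2.

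Of the 9 tested members edgeR's quasi-likelihood test called 1, Trf, against 6.87% of all tested genes called in either direction, 3.67% higher and 3.2% lower. Since this comparison chose Trf, nothing is read from that count. The 9 lie on chromosomes 1, 4, 7, 8, 9, 15, 16 and 19, outside the stretches of chromosomes 5, 6 and 12 where most genes shifted together.

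For each of the 10 members the SOX17KO libraries lay further from each other than the Control libraries did. Tested genes at large showed the same, with a median coefficient of variation of 14.1% within SOX17KO and 6.06% within Control. Within SOX17KO the highest library was 6.05 times the lowest for Trf, 3.53 times for Slc40a1, 2.27 times for Hmox1 and 2.12 times for Tfrc, against 1.91, 1.35, 1.11 and 1.20 times within Control. The coefficient of variation within SOX17KO was 37.7% for Tfrc and 39.5% for Hmox1, where the median tested gene had 14.1%, and it was 5.98% for Ftl1 and 6.62% for Ireb2. SOX17KO replicate 1 had the highest Tfrc, Slc40a1 and Slc11a2 of its group and the lowest Trf, Fth1, Ftl1 and Hmox1. Its Tfrc was 1.77 times and its Slc40a1 2.10 times the mean of replicates 2 and 3, and 8.88% of all tested genes were at least 1.5 times as high there. Its Hmox1 was 0.520 and its Trf 0.197 of that mean, and 13.5% of all tested genes were at least as far below as 1.5-fold. This sets 1 library against 2 and has no replicate check.

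**Figure D2:**
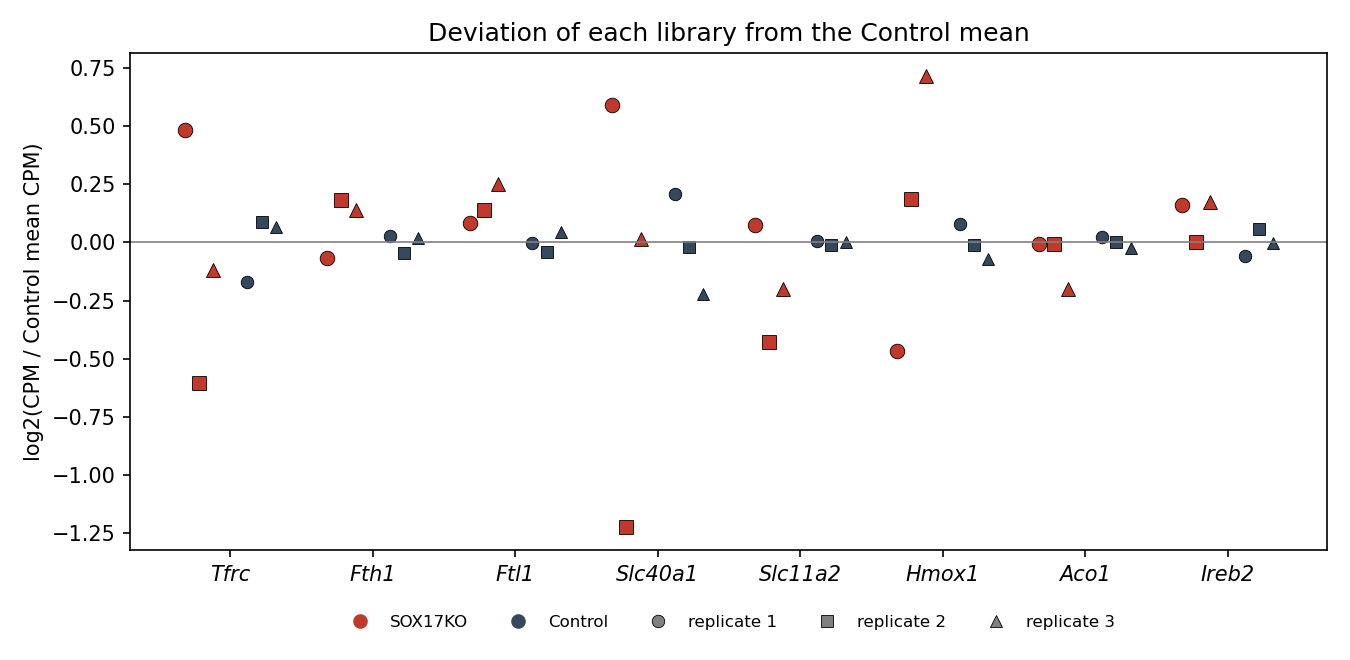
The log2 ratio of each library to the Control mean for the 8 tested members other than Trf, with SOX17KO in red left of Control in blue and 1 symbol per replicate. SOX17KO replicate 1 is highest in its group for Tfrc, Slc40a1 and Slc11a2 and lowest for Fth1, Ftl1 and Hmox1, while the Control libraries stay close to 0.

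RefSeq promoter windows (GRCm38.p6) around the transcription start were at hand for 6 members, Tfrc, Fth1, Ftl1, Aco1, Ireb2 and Lcn2, in 8 windows, and 7 motifs by name were searched on both strands. A GC box, GGGCGG, was found in 6 of the 8 windows, at least 1 for each of the 6 genes, and in 35.7% of the 32851 windows searched. A TATA box, TATAAA, was found in 2 of the 8 windows, those of Fth1 and Ftl1 (13.6% of windows searched). The hypoxia response core was found as ACGTG in 2 windows of Tfrc (19.6%). As GCGTG it was in 4 windows, of Fth1, Ftl1 and Tfrc (32.4%). Ftl1 held an NF-kB site in 1 window (4.51%). The antioxidant response element TGACNNNGC (12.4%), the HNF4 site CAAAGTCCA (0.475%) and the C/EBP site TTGCGCAA (0.183%) were in none of the 8 windows.

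Beyond the members, genes of the iron pathway were called about as often as genes at large. Those that rose included 2 multicopper ferroxidases, which oxidise exported iron, and a metal importer. Of 97 further iron genes measured, 79 were tested, of which 4 rose, 1 fell and 74 were not called; that is 6.33% called, against 6.87% of all tested genes. Their median log2 fold change was 0.05, against 0.01 over all tested genes. Heph, hephaestin, which oxidises iron as it leaves the enterocyte through ferroportin, had 37.2, 33.9 and 49.3 CPM in SOX17KO and 13.5, 12.1 and 11.9 CPM in Control. The groups were well apart, with means of 40.1 ± 8.10 CPM in SOX17KO and 12.5 ± 0.878 CPM in Control and a log2 fold change of 1.68 ± 0.16 (SE, edgeR adjusted p = 0.00190). Cp, ceruloplasmin, the ferroxidase of plasma, had 17.8, 15.8 and 7.65 CPM in SOX17KO and 3.65, 5.02 and 4.60 CPM in Control. The groups did not overlap, and SOX17KO replicate 3 was the nearest to Control; the log2 fold change was 1.64 ± 0.32 (SE, edgeR adjusted p = 0.0283). Heph and Cp were the calls among 8 tested genes of export and systemic control. Hif1a, the oxygen-sensitive transcription factor subunit, was at 237 ± 27.6 CPM in SOX17KO and 185 ± 0.657 CPM in Control and was not called (edgeR adjusted p = 0.0896). The hepcidin gene Hamp had no count in any library, which allows at most 0.109 to 0.166 CPM per library.

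Uptake genes gave 1 call among 13 tested. Slc39a8, the metal transporter ZIP8, which carries zinc, manganese and ferrous iron, had 65.7, 31.2 and 34.1 CPM in SOX17KO and 10.7, 12.6 and 11.9 CPM in Control. Every SOX17KO library was at least 2-fold above every Control library, replicate 1 most of all, and the log2 fold change was 1.90 ± 0.29 (SE, edgeR adjusted p = 0.0122). Its relative Slc39a14 (ZIP14) was at 74.4 ± 24.5 CPM in SOX17KO and 52.8 ± 3.21 CPM in Control, with SOX17KO replicate 1 below the Control libraries, and was not called (edgeR adjusted p = 0.297). Among 18 tested haem genes Hebp1, a haem-binding protein gene, fell: it had 1.08, 0.922 and 1.39 CPM in SOX17KO and 4.52, 4.35 and 5.02 CPM in Control (log2 fold change -2.05 ± 0.22 SE, edgeR adjusted p = 0.00343). Hebp1 lies on chromosome 6, where 75.4% of tested genes had a negative log2 fold change and the median was -0.24. Among 28 iron-sulfur assembly genes Glrx5, a mitochondrial glutaredoxin of cluster transfer, rose, with 74.8, 73.9 and 57.1 CPM in SOX17KO and 44.3, 45.6 and 49.0 CPM in Control (log2 fold change 0.57 ± 0.12 SE, edgeR adjusted p = 0.0356). It lies on chromosome 12 between Angel1 and Crip1, where the median was 0.46 and 51 of 129 tested genes were called higher. The part of these positions in either result was not tested. Storage and ferritin turnover gave 0 edgeR calls among 8 tested, with 2 at an unadjusted p below 0.05, and 0 with DESeq2 or limma-voom; the most abundant, the iron chaperone Pcbp1, also on chromosome 6, was at 593 ± 90.1 CPM in SOX17KO and 746 ± 25.6 CPM in Control (edgeR adjusted p = 0.176). The 5 tested genes of a list of further mRNAs reported to carry an iron-responsive element gave 0 edgeR calls, 0 at an unadjusted p below 0.05 and 0 with DESeq2 or limma-voom.

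**Figure D3:**
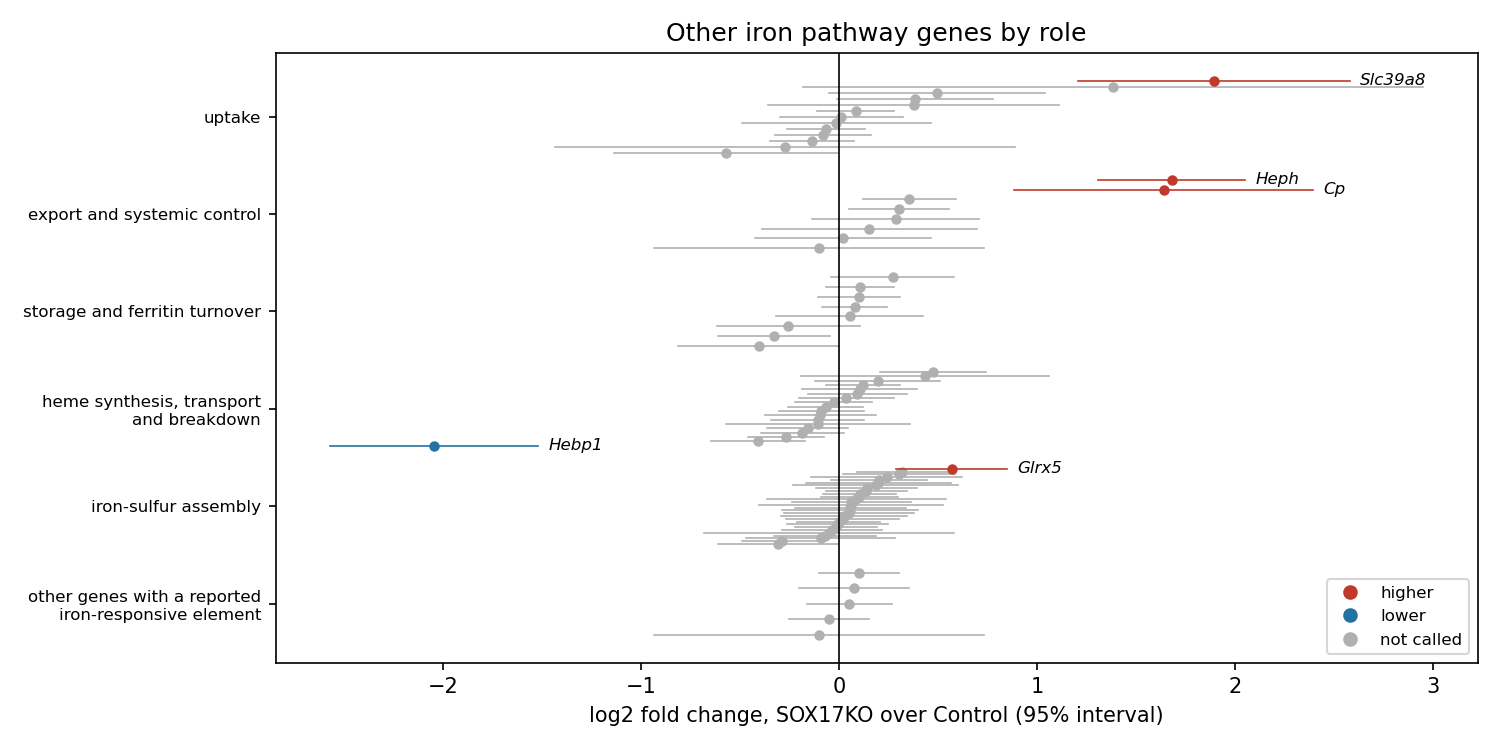
Log2 fold change, SOX17KO over Control, with its 95% interval for each tested iron pathway gene other than the 10, grouped by role, with genes past the edgeR threshold in colour. Heph, Cp, Slc39a8 and Glrx5 lie to the right of 0 and Hebp1 to the left, while the other 74 tested genes were not called.

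Of these 5 genes Heph and Hebp1 were called in all 14 other settings run (highest edgeR adjusted p 0.0243 and 0.0344). Leaving out any 1 Control library ended the call of Slc39a8 (edgeR adjusted p up to 0.0891), Cp (up to 0.148) and Glrx5 (up to 0.174). Leaving out SOX17KO replicate 2 also ended those of Cp (edgeR adjusted p = 0.0709) and Glrx5 (edgeR adjusted p = 0.0917), and limma-voom that of Cp (limma adjusted p = 0.0511). The count of calls was 2 without any 1 Control library, 3 without SOX17KO replicate 2 and 16 without SOX17KO replicate 1. Over all tested genes the count went from 834 to between 192 and 202, to 759 and to 2708 in the same settings.

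**Figure D4:**
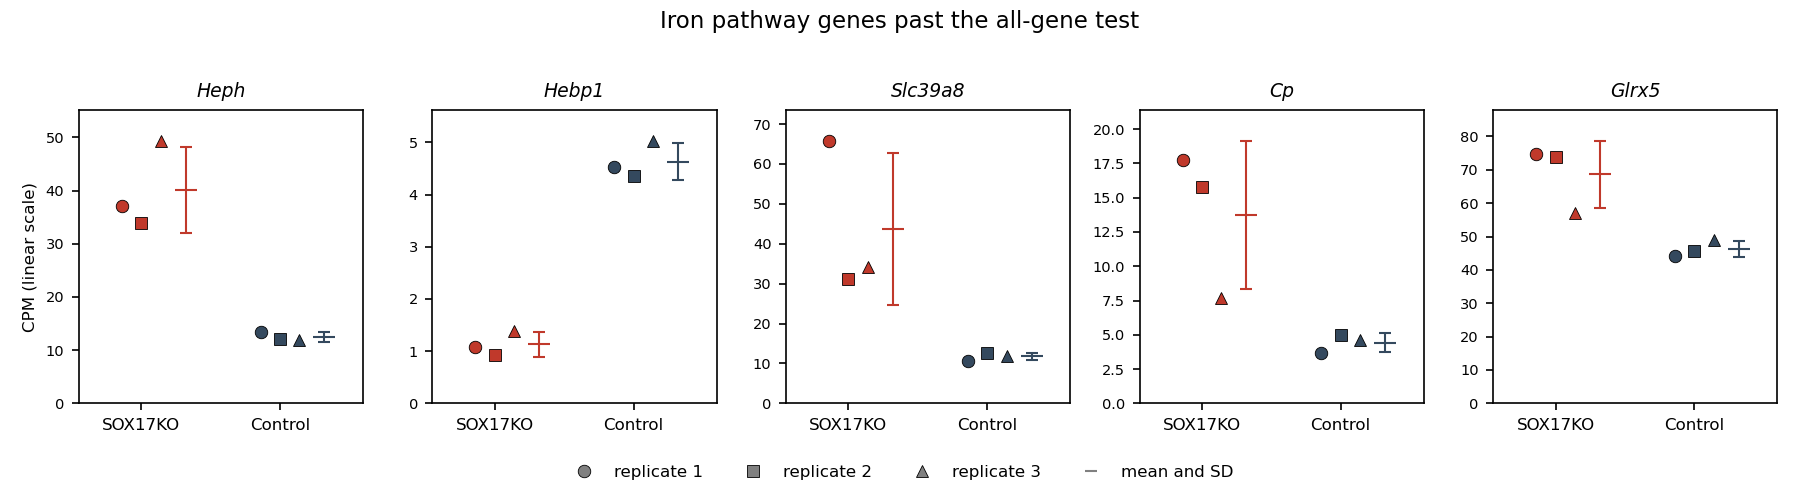
CPM in each library of the 5 iron pathway genes past the edgeR threshold, in order of p, on linear axes that start at 0, with SOX17KO in red and Control in blue, 1 symbol per replicate and a bar for the mean and SD. For Heph, Slc39a8, Cp and Glrx5 every SOX17KO library is above every Control library, and for Hebp1 every one is below.

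Hmox1 and both ferritin genes are known targets of NRF2, the transcription factor of the oxidative stress response, whose own gene and that of its inhibitor KEAP1 were listed with its other targets. Of 25 tested genes of this list 1 rose and 2 fell, 12% called against 6.87% of all tested genes, with a median log2 fold change of 0.02. Gclc, the catalytic subunit of glutathione synthesis, rose to 67.3 ± 6.31 CPM in SOX17KO, against 48.8 ± 2.07 CPM in Control (log2 fold change 0.46, edgeR adjusted p = 0.0292). Trim16, a ubiquitin ligase gene, fell to 103 ± 9.37 CPM in SOX17KO, against 144 ± 6.05 CPM in Control (edgeR adjusted p = 0.0227). Gsta4, a glutathione transferase gene, fell to 174 ± 23.5 CPM in SOX17KO, against 247 ± 5.98 CPM in Control (edgeR adjusted p = 0.0399). Without any 1 Control library edgeR called none of these 25 genes, with 6 or 7 at an unadjusted p below 0.05. DESeq2 called 7 on all libraries, and without SOX17KO replicate 1 edgeR called 8. Over all tested genes, 192 to 202 were called without 1 Control library, against 834 with all libraries. DESeq2 called 1439 of 17039, and without SOX17KO replicate 1 edgeR called 2708 of 12220 (22.2%).

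Genes of epithelial defence associated with Lcn2, receptors for IL-17 and IL-22 among them, gave more calls downward than upward with all 6 libraries. With 1 Control library left out they did not. In those settings 10, 11 and 12 genes of the list were still at an unadjusted edgeR p below 0.05, in either direction. With all 6 libraries 12 were. Of 17 tested, 5 fell and 1 rose, 35.3% called against 6.87% of all tested genes (3.2% lower), with a median log2 fold change of -0.28. That median was the value of Il17ra, which like Il17rc lies on chromosome 6 and was not called. The part of this position was not tested. Zc3h12a, the ribonuclease regnase 1, had 19.3, 22.2 and 25.4 CPM in SOX17KO and 47.8, 42.3 and 39.5 CPM in Control (log2 fold change -0.96 ± 0.13 SE, edgeR adjusted p = 0.00773). The neutrophil chemokine gene Cxcl1 fell to 6.40 ± 0.423 CPM in SOX17KO, against 11.2 ± 0.670 CPM in Control (log2 fold change -0.81 ± 0.13 SE, edgeR adjusted p = 0.0137). Another such chemokine gene, Cxcl5, was the 1 that rose, with 12.1, 8.08 and 7.54 CPM in SOX17KO and 1.01, 1.29 and 1.52 CPM in Control (log2 fold change 2.85 ± 0.27 SE, edgeR adjusted p = 0.00190). The other calls, named after their values were seen, were the NF-kB inhibitors Nfkbia and Tnfaip3 and the IL-22 receptor gene Il22ra1, all lower. Cxcl5 was called in all 14 other settings; Zc3h12a was not called without Control replicate 1 or 2, and Cxcl1 not without any 1 Control library (highest edgeR adjusted p 0.0553 and 0.0914). Without Control replicate 1 or 2 the list gave 1 edgeR call, the rise of Cxcl5. Without Control replicate 3 it gave 1 rise and 1 fall, and without SOX17KO replicate 1 it gave 5 rises and 8 falls. Over all tested genes, 192 to 202 were called without 1 Control library and 2708 without SOX17KO replicate 1, against 834 with all 6 libraries.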

How the data were processed

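The authors deposited expected counts for 6 libraries in 1 table, with reads divided over genes by estimation. Per the submitters' processing notes, Bowtie, RSEM and mouse build mm9 were used; versions, annotation and strand setting were not given in the sources used here. Per the labels' protocols, libraries were directional after poly(A) selection. Values were rounded and tested in edgeR 4.0.16 (R 4.3.3) by quasi-likelihood: TMM factors, low-count filter (minimum count 10, total 15), genotype as the 1 coefficient, Benjamini-Hochberg adjustment over 12137 genes, called below 0.05. CPM use TMM-adjusted library sizes; the SE is the log2 fold change over the square root of F. On simulated counts for SOX17KO against Control (12039 genes), 20.9% of genes changed 1.5-fold, 67.2% changed 2-fold and 89.2% changed 4-fold were recovered, with 11 false among 128 calls. Replicates were no copies of each other: counts differed by at least 12.03 times the sampling variance.

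Members, lists, motifs and rules were chosen with earlier results of these data known. The named genes were the members, Sox17, up to 3 called genes of each list or role by smallest p (else the most abundant), listed transferrin regulators, the 5 genes most like Trf (log2 CPM, prior count 2) and its nearest tested neighbours; others were chosen after their values were seen. Some genes the rule names are not reported here. Names and gene order came from RefSeq on GRCm38.p6, matched for 99.0% of tested genes; GENCODE M21 gave transcripts and lengths. Alternatives were RLE factors, library totals, no filter, at least 1 CPM in 3 libraries, DESeq2 1.42.0, limma-voom (limma 3.58.1), unrounded values, a replicate block, and leaving out each library in turn. Leaving out shifted chromosomes was added after seeing the data.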

Additional observations from a re-analysis of the deposited data

How the results depend on the processing

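Calls over all genes numbered 834, 1439 with DESeq2, 326 with the replicate number as a block, and 192 to 2708 when 1 library was left out. Other iron genes gave 5 calls, 8 with DESeq2, 3 with the block (Cp and Glrx5 not called, edgeR adjusted p = 0.0810 and 0.134), 3 outside the shifted regions and chromosome 6, and 2 to 16 with 1 library left out. The NRF2 list gave 3, 7 with DESeq2, 5 with no low-count filter, 0 with the block (7 at an unadjusted edgeR p below 0.05) and 0 to 8 with 1 library left out. The lipocalin 2 list gave 6, 10 with DESeq2, 2 with the block (1 higher, 1 lower) and 1 to 13 with 1 library left out. The cause was not tested. Same-numbered libraries did not deviate together (r = -0.19, -0.05 and -0.18). With deviations taken from a mean of only 3 libraries per group, these r cannot decide whether the replicate numbers pair them. The log2 fold changes of Tfrc, Slc40a1 and Hmox1 changed sign in some settings, ranging from -0.34 to 0.21, -0.50 to 0.34 and -0.10 to 0.47; those of the other 6 tested members kept theirs in all 14. Lcn2, below the low-count filter, was at -0.71 with no filter and -0.69 with DESeq2.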

Other observations

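SOX17KO replicate 1 stood apart from the other libraries, and without it edgeR called 16 of 80 tested iron genes other than the members (20%), against 22.2% of all tested genes, so the iron genes were called about as often as genes at large. Beside Heph, Cp, Slc39a8, Glrx5 and Hebp1 they included Slc39a14, the transporter ZIP14, with a log2 fold change of 0.72 ± 0.10 (SE, edgeR adjusted p = 0.000679), Blvrb, a biliverdin reductase gene, with 0.70 ± 0.10 (edgeR adjusted p = 0.000678), and Ncoa4, the receptor that delivers ferritin to the lysosome, with 0.40 ± 0.08 (edgeR adjusted p = 0.00472). Slc46a1, a folate transporter gene that is also reported to carry haem, was lower, at -0.87 ± 0.17 (edgeR adjusted p = 0.00472). With all 6 libraries Slc39a14, Blvrb, Ncoa4 and Slc46a1 were not called (edgeR adjusted p = 0.297, 0.443, 0.313 and 0.241). SOX17KO replicate 1, the library left out, was below every Control library for Slc39a14 and Blvrb, against their rise. It was within the Control range for Ncoa4 and was the SOX17KO library nearest to Control for Slc46a1. The calls of these genes thus depend on leaving that library out. Ltf, lactoferrin, a relative of transferrin, was lower at -2.29 ± 0.63. With all 6 libraries Ltf was too low to test. It had 0.382, 0.132 and 0.0554 CPM in SOX17KO replicates 1, 2 and 3 and 0.398 to 0.574 CPM in Control. The library left out was thus the SOX17KO library nearest to Control for Ltf, so nothing is read from its call. These 5 genes were chosen after their values were seen.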
